A study of Mus musculus with 26 samples.

Results

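The cytosolic ribosomal protein genes encode the protein subunits of the ribosomes of the cytoplasm. They were chosen by name: every row of the authors' normalized gene table whose symbol begins with Rpl or Rps and a number, or is Rplp0, Rplp1, Rplp2 or Rpsa, without symbols marked as pseudogenes (-ps) and without the S6 kinases. This gave 88 genes of 21031, of which 50 are named for the large subunit and 37 for the small subunit. The remaining gene, Rps19bp1, matched by name only: it encodes a protein that binds RPS19 and is not a subunit. The authors' gene types mark 3 of the 88 as processed pseudogenes (Rps12l2, Rps3a2 and Rps3a3), so the name rule also took in some gene copies. The mainly testis-expressed paralog Rpl10l had 0 counts over all libraries, the striated muscle paralog Rpl3l had 47 and Rpl39l had 12. None of these 3 was in the normalized table, so they are not among the 88.

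A ribosome needs its protein subunits in nearly equal numbers, and cells make these proteins from abundant, short messenger RNAs. Most of these messenger RNAs start with a run of pyrimidines, the 5′ terminal oligopyrimidine (TOP) tract, through which the growth-sensing kinase mTORC1 and the RNA-binding protein LARP1 control their translation. Ribosomal protein genes have also left many processed copies, called retrocopies or processed pseudogenes, across mammalian genomes, so short reads from one gene can match several places.

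Gene expression was measured by sequencing polyadenylated RNA of mesenteric arteries, small arteries that feed the gut, from male mice 8 weeks old. The mice carried changes in pannexin 1 (Panx1), a membrane channel that releases ATP. The 8 groups were wild type (n = 3) and global Panx1 knockout (n = 3), Y198F controls (n = 3) and Y198F mutants (n = 3), S205A controls (n = 4) and S205A mutants (n = 4), and Y308F controls (n = 3) and Y308F mutants (n = 3). The labels write the genotypes of the 3 point mutant lines as +/+ for mutants and -/- for controls, and describe controls as littermates or wild type. The global knockout removes Panx1 from every cell type of the artery, and the labels name no promoter or Cre for the mutant lines. No agent was given to any group, as far as the labels say. Each artery sample holds several cell types, so fewer cells of a type and less RNA per cell cannot be told apart.

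The 26 libraries held 14895969 to 23617902 counts each. Panx1 had 11, 20 and 27 counts in the knockout libraries against 96, 61 and 95 in wild type, and 16 to 95 in the 20 libraries of the mutant lines. Summed markers of smooth muscle lay between 17385 and 36525 counts-per-million (CPM) in every library. Those of endothelium lay between 794 and 6176 CPM, and those of pancreatic acinar cells and intestinal epithelium stayed at or under 5.41 and 4.29 CPM. The 794 CPM belonged to S205A control 1, and every other library had 2344 CPM or more. That control also held the 16 Panx1 counts, within the range of the knockout libraries. The names of 9 libraries carry a number that begins with 22, which the labels do not explain. These are each of the 3 Y198F mutants, 3 of the 4 S205A controls (all but control 4) and 3 of the 4 S205A mutants (all but mutant 1), and they are called the 22-numbered libraries here. Ribosomal RNA genes took 0.0831% to 0.139% of the counts in these 9 and 2.32% to 7.09% in the other 17, so the 2 kinds of library stood apart before any gene was compared. All Y198F mutants and no Y198F control are 22-numbered, so in that comparison the genotype and the kind of library cannot be told apart.

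The sequence around the annotated start sites is shown first, because messenger RNAs of these genes are known for a pyrimidine run at their 5′ end. RefSeq promoters on GRCm38.p6, from 250 bases before to 50 after the start, were matched by symbol for 64 of the 88 genes. An unbroken run of 8 or more C or T on the transcribed strand, between 25 bases before and 50 after the start, was present in 46 of the 64 (71.9%), against 27.1% of 27025 promoters of all genes. The median longest run was 10 bases within the searched stretch, whose end cut off some runs, such as those of Rpl10 and Rps2. The windows below cover 30 bases, 5′ to 3′ on the transcribed strand, with the longest run in capitals. They show 2 long runs in genes that were below wild type in the knockout and called by DESeq2 (Rpl7a at chr2:26910788-26910817, plus strand, and Rpl35 at chr2:39005115-39005144, minus strand), runs of genes that the results turn on (Rpl41 at chr10:128549119-128549148, minus strand, and Rplp2 at chr7:141447636-141447665, plus strand), and for contrast Rps19bp1 (chr15:80264292-80264321, minus strand), which encodes no subunit. Rpl7a and Rpl35 have the longest runs of the matched genes DESeq2 called. Of those not shown, Rplp0, Rpl34 and Rpl13 have longest runs of 7, 8 and 10 bases. A link between run length and the knockout values was not tested. In the order given, the runs shown begin at positions -14, -7, 40, -5 and -1 relative to the annotated start. A run in a window therefore need not be the TOP tract of the messenger RNA.
Rpl7a: cacaaTTCCCTCTTCTTTCTTTCTCCagca
Rpl35: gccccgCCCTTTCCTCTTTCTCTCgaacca
Rpl41: cgccattaaatagcagtaggCCTCCCTCTC
Rplp2: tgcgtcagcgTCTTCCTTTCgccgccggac
Rps19bp1: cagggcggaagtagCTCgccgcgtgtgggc
The runs measure 21, 18, 10, 10 and 3 bases. That of Rpl41 ends where the search ended, 50 bases after the start, so it may be longer. Other short motifs were searched on both strands of the whole 300-base promoter. CCGGAAG, the core of sites bound by ETS factors such as GABPA, was in 24 of the 64 (37.5%) against 9.12% of all promoters. AAGATGG, a core letter string of YY1 sites, was in 9 (14.1%) against 6.48%, and TATAAA in 6 (9.38%) against 14.2%. TCTCG followed directly by its own reverse complement, a palindrome, was in 5 (7.81%) against 0.496%. A match describes the letters only and shows no bound factor.

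A second set of sequences shows how alike some of the 88 are to other genes. The intronless gene Rps27rt (ENSMUSG00000050621, chromosome 9, 114811434 to 114811807, minus strand, GRCm39) has the same coding sequence as Rps27 (ENSMUSG00000090733, chromosome 3, 90119819 to 90120977, minus strand). All 255 bases, stop codon included, are identical, so no letter is in capitals:
Rps27 and Rps27rt: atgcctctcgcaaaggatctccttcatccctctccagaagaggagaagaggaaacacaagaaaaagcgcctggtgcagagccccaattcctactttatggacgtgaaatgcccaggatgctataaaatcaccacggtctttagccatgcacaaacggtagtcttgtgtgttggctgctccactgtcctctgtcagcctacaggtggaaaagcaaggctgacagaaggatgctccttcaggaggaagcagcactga
The paralog Rps27l differs from Rps27 at 61 aligned bases (76.1% identity). Rpl23a, a large subunit protein near the exit of the nascent chain tunnel, has 11 annotated pseudogene copies that share sequence with it. In 3 of them the 468-base copy differs from the Rpl23a coding sequence at 1 base. Positions are counted from 1 at the first base of the Rpl23a coding sequence, Rpl23a's base comes first, and the windows carry the differing base in capitals. The differences are C246T in Gm10132 and A116T in Rpl23a-ps3, both on chromosome 14, and C248T in Gm10335 on chromosome 10.
Rpl23a, 231 to 261: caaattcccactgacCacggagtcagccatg
Gm10132: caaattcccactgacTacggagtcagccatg
Rpl23a, 101 to 131: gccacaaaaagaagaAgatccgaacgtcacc
Rpl23a-ps3: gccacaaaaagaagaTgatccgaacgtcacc
Of the 88 genes, 23 had over 50% of their 100-base exon windows copied exactly elsewhere in the genome and 20 had under 10%. Exons of 40 overlapped another annotated gene. How the authors' counting treated reads that match several places, and whether it used the strand, is not given in the sources used here, so counts of these genes are uncertain.

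The ribosomal protein genes differed widely in level per length. In CPM per kilobase of union exon, averaged over the libraries, the highest were Rplp1, an acidic stalk protein, at 523, Rps3a1 at 437, Rps4x and Rps2 both at 242 and Rpl8 at 211. The lowest were Rpl36al at 0.128, Rps10 at 0.951, the pseudogene Rps12l2 at 1.33, Rpl24 at 1.39 and the retrocopy Rps3a3 at 4.04. These averages pool both kinds of library. In the S205A line Rps12l2 averaged 1.52 CPM in 22-numbered libraries and 0.0519 CPM in the others, and Rps3a3 6.58 and 1.63 CPM. The order of the lowest genes may therefore differ by kind. The order depends on the length used. In CPM per kilobase of coding sequence, for the 84 with one, Rpl41, which encodes the shortest ribosomal protein, came first at 1599, ahead of Rplp1 at 898, Rps14 at 888, Rps24 at 783 and Rps15 at 734.

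Several low levels belonged to genes that share their exons with another annotated gene. Exons of Rpl24 were overlapped over 81.5% of their length by a same-strand gene, Gm28037, and Rpl24 held 804 counts over all libraries. Rps10 was overlapped over 74.3% by Gm49804 and held 1471 counts. Rpl13a was overlapped over 59.3% by Gm45713 and held 6450 counts. RPS10 and RPL24 are core subunits, and the part of the overlap in these low counts was not tested.

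The paralogs were lower than the gene they resemble, per coding length. Rpl7l1 stood at 81.8 against 516 for Rpl7, Rpl22l1 at 87.4 against 392 for Rpl22, and Rps27l at 180 against 419 for Rps27. Rps4l stood at 14.3 against 527 for Rps4x and Rpl36al at 1.21 against 298 for Rpl36a. Rps27rt, with the coding sequence of Rps27, stood at 15.7.

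**Figure D1:**
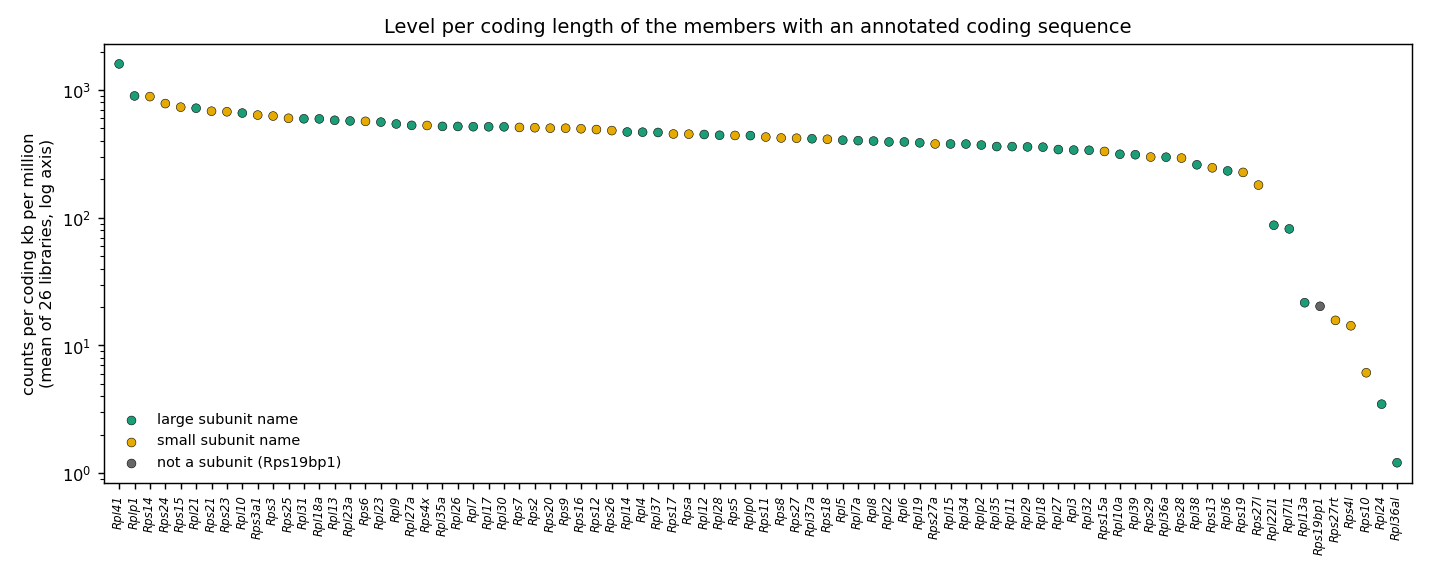
Level of each ribosomal protein gene with an annotated coding sequence, in CPM per kilobase of coding sequence (mean of 26 libraries, log axis), ordered from high to low. Most genes lie on a shallow slope below Rpl41 at 1599, and a short tail falls to Rpl36al at 1.21.

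Together the 88 genes took a small and fairly steady share of the counts. The share was 2.09%, 1.91% and 2.45% in wild type and 1.88%, 1.89% and 1.90% in the knockout. It was 1.49%, 2.07% and 1.78% in Y198F controls and 2.27%, 1.70% and 1.81% in Y198F mutants. In S205A controls it was 1.68%, 2.04%, 2.10% and 1.59%, and in S205A mutants 1.56%, 1.87%, 1.84% and 1.72%. Y308F controls held 1.96%, 1.94% and 1.67% and Y308F mutants 1.59%, 1.76% and 1.55%. The 3 wild-type libraries lay above the 3 knockout libraries, and in each of the mutant lines the groups overlapped. Small subunit genes held 0.697 to 0.750 of the counts of large subunit genes in every library, so both subunits kept nearly the same proportion.

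**Figure D2:**
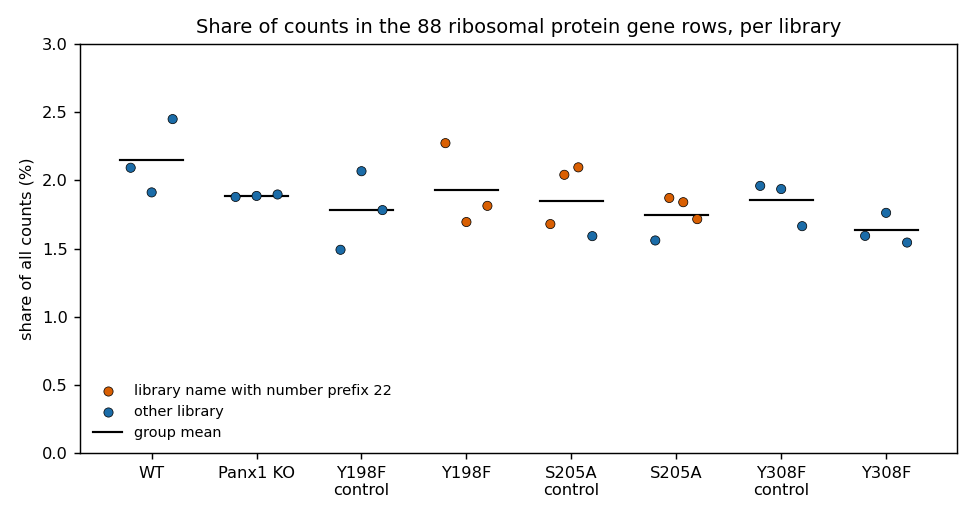
Share of all counts, in percent, held by the 88 ribosomal protein gene rows in each library, by group, with a line at each group mean and 22-numbered libraries in orange. Wild type reaches 2.45% in one library, the knockout libraries lie between 1.88% and 1.90%, and the S205A and Y198F groups overlap.

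Loss of Panx1 was compared with wild type to ask which arterial genes depend on the channel. Ribosomal protein messenger RNAs were slightly lower in knockout arteries in nearly every gene measured, and none passed the test in edgeR. Of 86 tested genes, 83 had a fold change below 0, where 49.2% of all genes tested did. Their median log2 fold change was -0.30, with quartiles of -0.34 and -0.26, beside 0.0052 over all genes. The medians were -0.30 for the large subunit genes and -0.29 for the small, and the difference between the subunits was not tested.

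In detail, 0 of 86 passed an adjusted p-value of 0.05 (edgeR's quasi-likelihood test, Benjamini-Hochberg adjustment over 16193 genes), where 0.0309% of all genes did. At an unadjusted p-value under 0.05 there were 58, all lower, where 5.92% of all genes were lower at that level. With single libraries left out, this number ranged from 19 without knockout library 2 to 66 without wild-type library 2. Over all genes, in either direction, those 2 fits had 1148 of 16774 and 2283 of 16951. DESeq2 on the same counts called 7, all lower, where it called 0.945% of all genes: Rpl41, Rpl35, Rpl7a, Rplp0, Rpl34, Rpl13 and Rpl23a. The knockout libraries lay wholly below the wild-type libraries for 69 genes and wholly above for 2, against 10.5% and 8.24% of all genes. The genes share their libraries and are not independent of each other, so these counts are a description.

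Among single genes, Rpl41 had the lowest fold change. Its level was 164, 167 and 165 CPM in the knockout and 228, 227 and 281 CPM in wild type (165.5 ± 1.12 against 245 ± 31.1, SD, n = 3 each), a log2 fold change of -0.55 with a standard error of 0.118 and an adjusted p-value of 0.289. The knockout libraries lay close together and below all of wild type. Rpl35, which sits at the mouth of the exit tunnel, was measured at 131, 118 and 116 CPM against 151, 185 and 192 CPM (-0.52, standard error 0.122, adjusted p-value 0.311). Exons of Rpl35 overlap genes on the opposite strand over 68.9% of their length. Rps27l, the paralog of Rps27 that p53 is known to induce, was measured at 37, 40.6 and 40.1 CPM against 48.9, 57.3 and 53.7 CPM (-0.42, standard error 0.104, adjusted p-value 0.314). In each of these genes the 3 knockout libraries stayed below the 3 wild-type libraries.

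Genes with known separate roles were also below 0. The stalk proteins, which recruit elongation factors, stood at -0.43 (Rplp0), -0.39 (Rplp1) and -0.42 (Rplp2), and Rpsa, which doubles as a laminin receptor, at -0.35. Rps6, the substrate of the S6 kinases, stood at -0.29 and Rps19, mutated in Diamond-Blackfan anemia, at -0.26. Rpl5 and Rpl11, which bind the p53 inhibitor MDM2 when ribosome assembly fails, both stood at -0.28, Rpl38 at -0.31, Rps27a, which is made fused to ubiquitin, at -0.30, and Rpl10 at -0.20. Rps19bp1, no subunit, stood at -0.27. None of these passed the test.

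A few genes departed from the common value. Rpl22 stood at -0.10 and its paralog Rpl22l1 at -0.0074, Rpl7l1 at -0.11 and Rpl13a at -0.051. The values above 0 were those of the low-count genes Rps27rt (0.82), Rpl24 (0.68) and Rps10 (0.023). Rpl36al and Rps12l2 fell under the filter on low counts and were not tested.

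Features of the libraries moved with this comparison. Wild-type library 3 had the highest share of ribosomal protein counts, and it also carried the most adipocyte marker counts (1852 CPM over 5 of 5 genes, against 127 to 656 CPM in the other wild-type and knockout libraries) and erythroid marker counts (592 CPM against 1.52 to 37.1 CPM). Without it the median was -0.21. Ribosomal RNA genes took 4.12% to 5.84% of the counts in wild type and 2.32% to 3.09% in the knockout. With ribosomal and mitochondrial RNA genes left out of the total, the share was 2.15% to 2.77% in wild type and 2.07% to 2.08% in the knockout, and the groups still did not overlap. The part of these features in the result was not tested. The median over the 23 genes with mostly copied windows was -0.30 and that over the 20 with few copied windows was -0.28.

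Other genes of translation and of the mitochondrion were read from lists, and none of the genes in the lists given here passed the test in the knockout. Translation factors and other genes with TOP messenger RNAs were below 0 in 18 of 19, with a median of -0.20. Among these, Eef1b2, which exchanges the nucleotide of the elongation factor eEF1A, stood at -0.40, and Naca, which binds nascent chains, at -0.39. Nuclear genes of the respiratory chain had a median of -0.28, with 76 of 83 below 0, and mitochondrial ribosome genes -0.20. Ribosome biogenesis genes stood at -0.12 and growth control genes such as Mtor and Tsc2 at 0.0041. Factors that bind ribosomal protein promoters, such as Sp1 and Gabpa, had a median of 0.14, with 6 of 7 above 0. The respiratory chain median thus lay close to that of the ribosomal protein genes.

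In the authors' deposited table of the knockout comparison, 1 of 86 ribosomal protein genes had an adjusted p-value under 0.05, where 0.134% of all genes in it did. That gene was Rpl7a, at -0.38 on the log2 scale (adjusted p-value 0.0133), and 83 of 86 were below 0 with a median of -0.31. The deposited table comes from DESeq2, per the labels' protocols, and gave no SD per group.

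**Figure D3:**
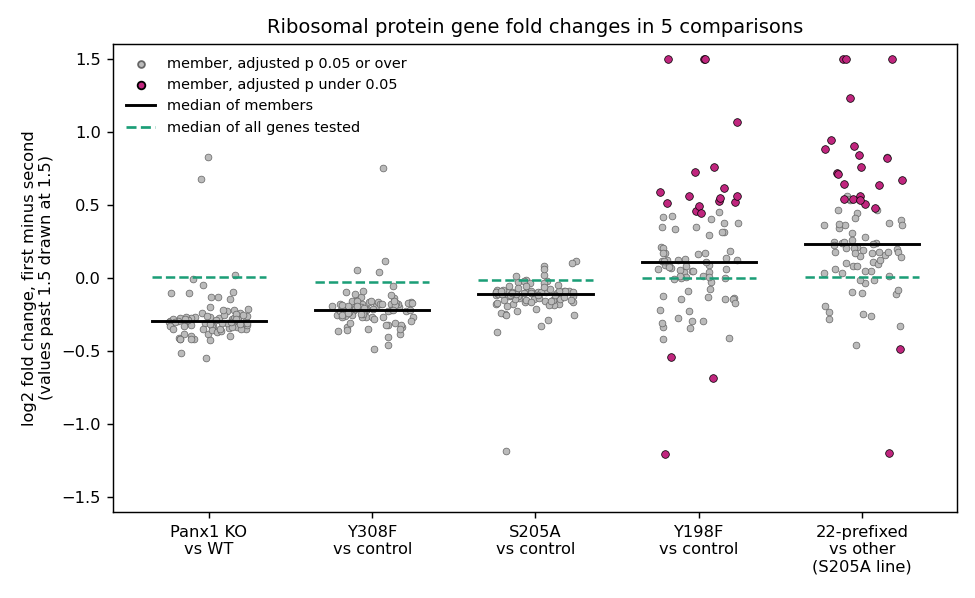
Log2 fold changes of every tested ribosomal protein gene in the 4 mutant against control comparisons and between the 2 kinds of library in the S205A line, first group minus second, with values past 1.5 drawn at 1.5, genes with an adjusted p-value under 0.05 in purple, a black line at the median of these genes and a dashed line at that of all genes tested. The knockout and Y308F values lie mostly below 0, with medians of -0.30 and -0.22, and those of Y198F and of the library contrast spread on both sides.

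Y308F removes a tyrosine of the Panx1 intracellular tail that can be phosphorylated, and mutants were compared with their own controls. Ribosomal protein genes had mostly negative fold changes here too, and none passed the test. Of 86 tested, 82 were below 0, where 54.0% of all genes were, with a median log2 fold change of -0.22 beside -0.025 over all genes (-0.14 without Y308F mutant 3). Passing genes numbered 0 in edgeR's quasi-likelihood test (0.0% of all genes) and 0 in DESeq2 (0.0%), and 6 had an unadjusted p-value under 0.05, all lower (1.93% of all genes). With single libraries left out, the 6 ranged from 1 to 21. The number was 1, for example, without Y308F mutant 2 (600 of all 16599 genes, either direction) and 21 without Y308F control 3 (1383 of 16671).

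Rps27l, Rpl35 and Rps15 had the smallest p-values. Rps27l was measured at 43.6, 41 and 35 CPM in mutants and 51, 52.4 and 50.9 CPM in controls (log2 fold change -0.36, standard error 0.118, adjusted p-value 0.940), without overlap. Rpl35 was measured at 108, 125 and 126 CPM against 188, 180 and 127 CPM (-0.46, standard error 0.168, adjusted p-value 0.940), and the third control lay just above the mutants. Rps15, a small subunit protein of the decoding region, was measured at 291, 318 and 307 CPM against 428, 430 and 331 CPM (-0.37, standard error 0.151, adjusted p-value 0.940). Groups did not overlap, with mutants lower, for 23 of 86 genes (5.75% of all genes) and with mutants higher for 0 (4.91%).

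Whether the knockout and Y308F effects differed was tested gene by gene as an interaction, and 0 of 87 ribosomal protein genes passed (edgeR; 0.0116% of all genes), with 0 at an unadjusted p-value under 0.05 (3.1% of all genes). Across 86 genes the fold changes of the 2 comparisons, which share no library, correlated at r = 0.686 and rho = 0.498, given as a description because genes of 1 library share its depth and preparation. A value over all genes is not given here. In the Y308F comparison, respiratory chain genes had a median of -0.20, mitochondrial ribosome genes -0.15 and the promoter factors 0.15, and no listed gene passed. The authors' deposited table for Y308F had 0 ribosomal protein genes under 0.05 (0.0% of all genes in it) and a median of -0.22.

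S205A removes a serine of the Panx1 intracellular loop, and 4 mutants were compared with 4 controls. The series' text speaks of 3 vascular trees for a genotype, so whether the 4 libraries of each group come from 4 animals is not settled by the labels. No ribosomal protein gene differed past the threshold, although most values were slightly below 0. Of 87 tested, 0 passed in edgeR's quasi-likelihood test (0.0% of all genes) and 0 in DESeq2 (0.242% of all genes), and 1 had an unadjusted p-value under 0.05 (2.87% of all genes). The median was -0.11 beside -0.013 over all genes, with 81 below 0 (53.1% of all genes). That median was -0.18 without S205A control 4, -0.059 without control 3, -0.072 without control 2 and -0.068 without mutant 1. Other features of the libraries moved with these groups. The summed level of the 5 fibroblast markers was 811 to 1252 CPM in controls and 1271 to 4140 CPM in mutants, and mitochondrial RNA genes took 5.49% to 7.29% of the counts in controls and 4.21% to 5.24% in mutants. Neither range overlapped, and their part in these values was not tested.

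The gene with the smallest p-value was Rpl35, at 118, 89.7, 102 and 111 CPM in mutants and 118, 139, 151 and 121 CPM in controls. Its log2 fold change was -0.33 with a standard error of 0.131 and an adjusted p-value of 1.00 from edgeR, and the exact two-sided permutation p-value was 0.0571 (n = 4 each). The highest mutant reached the lowest control, and across all 87 tested genes the groups overlapped, where 0.649% of all genes had mutants wholly lower and 1.16% wholly higher. Within the 22-numbered libraries alone (3 against 3), the median was -0.13 and 0 genes passed (0.0%), with 1 at an unadjusted p-value under 0.05 (3.41% of all genes). The interaction with the knockout effect had 0 of 88 genes past the threshold (0.00562% of all genes) and 1 at an unadjusted p-value under 0.05 (4.16% of all genes). The authors' deposited table for S205A had 0 of these genes under 0.05 (0.495% of all genes in it), with a median of -0.12.

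Y198F removes a tyrosine of the same intracellular loop. Against the labelled Y198F controls, ribosomal protein genes rose and fell past the threshold, but every mutant library is 22-numbered and no control is. Of 87 tested, 17 were higher and 3 lower past an adjusted p-value of 0.05 in edgeR (20 in all). Of all genes tested, 15.0% were called, 9.55% higher and 5.48% lower. The share called was thus above the background for higher calls and below it for lower calls, and the median log2 fold change was 0.11 beside -0.0028 over all genes. That median was -0.034 without Y198F mutant 1, 0.016 without control 1 and 0.21 without control 2. Summed fibroblast markers were at 1166 to 2002 CPM in mutants and 2092 to 2691 CPM in controls, and summed Schwann cell markers at 87.2 to 98.5 CPM and 102 to 187 CPM. Their part in these values was not tested.

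The gene with the smallest p-value was Rps27rt, the copy of Rps27 shown above. It stood at 12.8, 10.1 and 8.1 CPM in mutants and 0.952, 1.41 and 1.04 CPM in controls, a log2 fold change of 3.18 with a standard error of 0.299 and an adjusted p-value of 0.000104 (edgeR). Rpl23a fell, from 250, 372 and 288 CPM to 142, 126 and 129 CPM (-1.20, standard error 0.143, adjusted p-value 0.000459). Both groups were far apart in each gene. Rpl36 rose from 52.7, 59.8 and 61.6 CPM to 111, 90 and 94.5 CPM (0.76, adjusted p-value 0.00148, edgeR), and Rplp2, a stalk protein, rose from 89.2, 108 and 100 CPM to 179, 149 and 166 CPM (0.73, adjusted p-value 0.00196, edgeR).

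The other genes called in this comparison included several copies. Rps3a3, a copy of Rps3a1 that is 98.9% identical to it, rose by 2.06, Rpl37rt by 1.07, Rps28 by 0.61, Rpl13 by 0.59, Rplp1 by 0.56 and Rps12 by 0.56 on the log2 scale. The pseudogene Rps12l2 held 29, 18 and 30 counts in mutants and 2, 0 and 2 in controls. The ratio of these pooled counts, scaled by library totals, was 19.2 (exact 95% interval 7.19 to 72.1, counting error only). Rpl35a fell by 0.68 and Rpl36a by 0.54.

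Fits that took the kind of library into account called none of these genes. When all 8 groups were fitted together and the kind of library was a covariate, 0 ribosomal protein genes passed in edgeR (0.0% of all genes), 0 had an unadjusted p-value under 0.05 (2.34% of all genes), and the median was -0.11. Against the 3 S205A controls that are 22-numbered, likewise 0 passed (0.0%) and 0 had an unadjusted p-value under 0.05 (3.1%), with a median of -0.060. These controls come from another line, so line and genotype cannot be told apart there. In the covariate fit only the S205A groups hold both kinds of library, so the covariate rests on them. The joint fit of the 8 groups without the covariate called 5 of 88, where it called 922 of all 18715 genes. With single libraries left out the count ranged from 7 to 21. It was 7 without Y198F control 3 (908 of all 16708 genes), 11 without control 1 (1546 of 16785) and 21 without control 2 (1714 of 16725). It was 12 without mutant 1 (2128 of all 16679 genes), 17 without mutant 2 (1664 of 16697) and 17 without mutant 3 (2093 of 16612). The authors' deposited table for Y198F matches another control group. Its fold changes lay within 0.0135 of the log2 ratio of mean CPM in Y198F mutants to that in the 4 S205A controls for each of 88 genes, whereas the median distance from the ratio to the labelled Y198F controls was 0.138. That deposited table has 0 of these genes under 0.05 (0.0158% of all genes in it) and a median of 0.014, and gives Rpl23a a log2 fold change of -0.49.

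The S205A line is the only one that holds both kinds of library within its groups, which allowed the kind of library to be tested with genotype held. Here 6 libraries were 22-numbered, and S205A control 4 and S205A mutant 1 were not. In the 22-numbered libraries most ribosomal protein genes called were higher, while Rpl23a and Rpl36a were lower. Of 87 tested, 21 were higher and 2 lower in the 22-numbered libraries (edgeR, adjusted p-value under 0.05; 5.74% of all genes were called, 4.42% higher and 1.32% lower). The median log2 fold change was 0.23 beside 0.0032 over all genes, and 71 genes were above 0 (50.3% of all genes). Genes called both here and for Y198F against its labelled controls numbered 19, all with the same direction in both, out of 20 calls for Y198F and 23 calls here. Over all genes, 2411 of 16050 were called for Y198F and 902 of 15709 here. Their overlap is not given here, so the 19 cannot be set against it.

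Rps27rt stood at 8.97, 12.4, 8.99, 8.71, 11.8 and 10.2 CPM in the 6 libraries and 0.755 and 0.649 CPM in the other 2, a log2 fold change of 3.84 (standard error 0.307, adjusted p-value 0.000528, edgeR). Rpl23a stood at 121, 138, 147, 138, 138 and 128 CPM against 330 and 289 CPM (-1.20, standard error 0.110, adjusted p-value 0.000837, edgeR). Neither gene's 2 sets came near each other, and the same levels ran through the series: Rpl23a was at 391 to 423 CPM in wild type, 275 to 331 CPM in the knockout, 292 to 419 CPM in Y308F controls and 251 to 325 CPM in Y308F mutants, all above every 22-numbered library. Rps27 itself, whose coding sequence is that of Rps27rt, was 0.71 higher (adjusted p-value 0.0169, edgeR).

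Ordinary subunit genes changed as well. Rplp2 stood at 154, 186, 188, 151, 150 and 163 CPM against 81.6 and 94.4 CPM (0.90, adjusted p-value 0.0082, edgeR), and Rpl36 at 86.5 to 117 CPM against 47.2 and 52.4 CPM (0.94, adjusted p-value 0.00605, edgeR). Rps28 rose by 0.88, Rps12 by 0.84, Rpl39, which lines the exit tunnel, by 0.82, and Rpl18 by 0.76. Rpl36a, at 61.8 to 71.9 CPM against 93.5 and 95.6 CPM, fell by 0.49 (adjusted p-value 0.0231, edgeR). Among the 23 mostly copied genes 9 rose and 2 fell, and among the 20 with few copied windows 3 rose, where 4.42% of all genes were called higher and 1.32% lower. The difference between these 2 sets was not tested. Across 87 genes the share of copied windows and this fold change correlated at r = 0.023 and rho = 0.015, as a description. Rps12l2 held 17, 41, 55, 20, 19 and 5 counts against 1 and 1, a ratio of 30.5 (exact 95% interval 8.30 to 254, counting error only, without the spread between libraries).

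**Figure D4:**
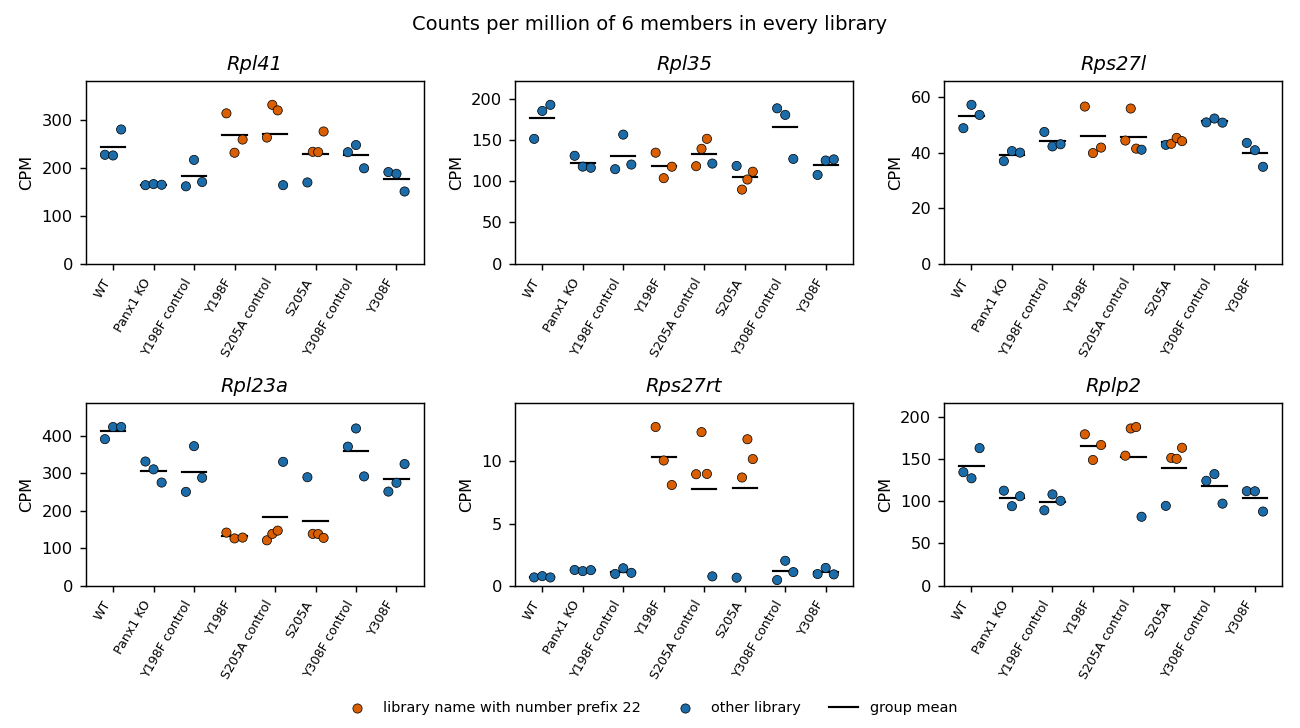
CPM of Rpl41, Rpl35, Rps27l, Rpl23a, Rps27rt and Rplp2 in each of the 26 libraries, by group, with a line at each group mean and 22-numbered libraries in orange. Rpl23a lies at 121 to 147 CPM in every orange library and at 250 CPM or more in every blue one, and Rps27rt lies above 8 CPM in the orange libraries only.

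Annotated pseudogene copies differed between the same libraries. The 11 copies of Rpl23a held 102 CPM on average in the 6 libraries and 43.0 CPM in the other 2. Rpl23a and its copies together held 215 to 257 CPM against 329 to 377 CPM, so the sum was lower too, by 0.57 on the log2 scale. The copies of Rpl35a held 117 CPM against 28.1 CPM, and their sum with Rpl35a was higher by 0.29, although Rpl35a alone was 0.46 lower (adjusted p-value 0.0691, edgeR). Copies of Rpl10 held 73.8 against 9.12 CPM, those of Rpl13 71.4 against 12.5 CPM and those of Rps12 26.05 against 2.50 CPM. The count of 23 ranged from 2 to 30 with single libraries left out. It was 2 without S205A control 4 (70 of all 16049 genes) and 3 without S205A mutant 1 (104 of 16082), each of which leaves 1 library on the other side, whose spread is then assumed to be that of the rest. It was 30, 18 and 8 without S205A controls 1, 2 and 3, with 1174, 886 and 413 calls over all genes. It was 11, 12 and 11 without S205A mutants 2, 3 and 4, with 596, 574 and 534 calls over all genes. Whether reads were divided differently among near-identical genes in the 2 kinds of library was not tested.

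Other genes of translation also passed the test between the kinds of library. Fau, whose product is cut into the small subunit protein RPS30, rose by 0.87 (adjusted p-value 0.008, edgeR). Among the 19 listed translation factors and other genes with TOP messenger RNAs, 0 rose and 3 fell. None of these 3 is a translation factor: Hnrnpa1, an RNA-binding splicing protein, fell by 0.80, Npm1, a nucleolar chaperone, by 0.70 and Nap1l1, a histone chaperone, by 0.44. Of 83 respiratory chain genes 6 were called higher and 4 lower, and of 77 mitochondrial ribosome genes 3 higher and 0 lower, beside 4.42% higher and 1.32% lower of all genes. Across 87 ribosomal protein genes the fold changes of this contrast and of Y198F against its controls, which share no library, correlated at r = 0.980 and rho = 0.912, and at r = 0.923 over 83 genes without Rps27rt, Rps12l2, Rps3a3 and Rpl37rt. These values are a description, and the correlation over all genes is not given here.

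**Figure D5:**
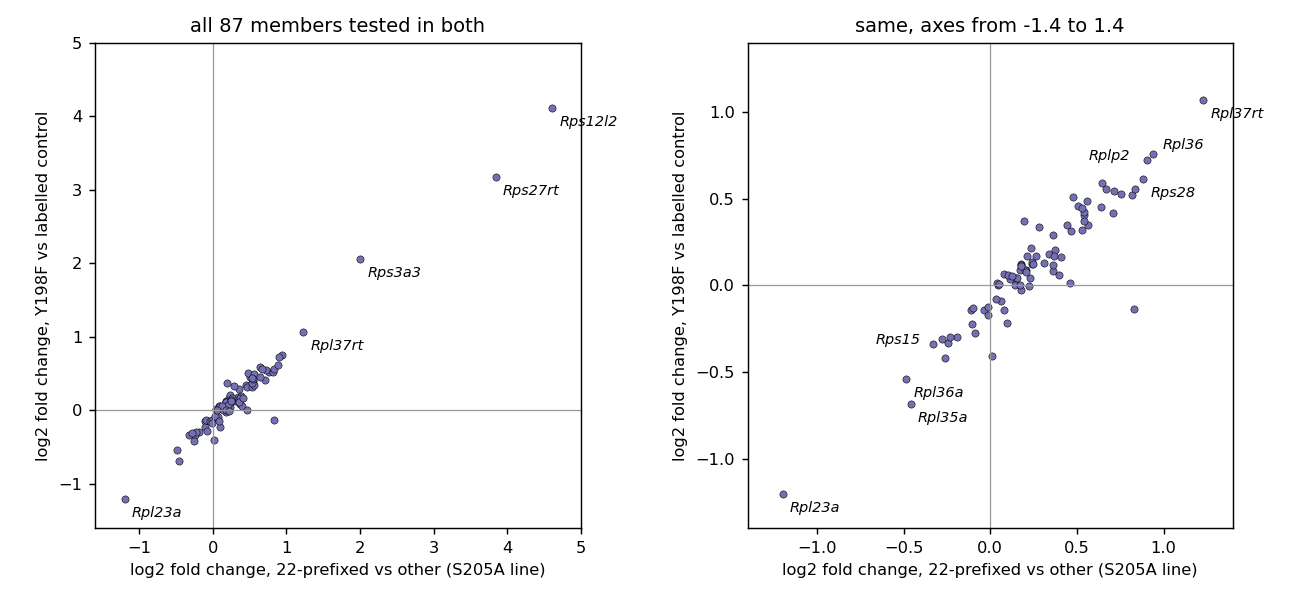
Log2 fold change of each of 87 ribosomal protein genes in Y198F mutants against labelled controls (vertical) and between 22-numbered and other libraries of the S205A line (horizontal), for the full range and enlarged around 0. The points follow the diagonal, from Rpl23a at -1.20 on both axes to the copies Rps27rt and Rps12l2 at the upper end.

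Pairs of effects were also compared directly, although the Y198F effect cannot be told apart from the kind of library. Between the knockout and Y198F effects, 27 genes differed past the threshold (edgeR; 11.6% of all genes), led by Rpl36 at a difference of -1.07, Rplp2 at -1.14 and Rps28 at -0.96. Between the Y198F and Y308F effects, 13 differed (5.7% of all genes). Both counts were 0 when all 8 groups were fitted together, without the kind of library as a term as well as with it. In that joint fit 43 and 30 of these genes had an unadjusted p-value under 0.05 without the term (3678 and 3301 of all 18715 genes), and 3 and 1 did with it (892 and 501 of all genes). Between Y198F and S205A 0 passed (0.0% of all genes) and 20 had an unadjusted p-value under 0.05 (14.3% of all genes), and between S205A and Y308F 0 passed (0.0%) with 0 at an unadjusted p-value under 0.05 (3.49%).

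Within groups, the ribosomal protein genes varied together. After group and library-kind means were taken out, the level of a gene correlated with the mean of the others at a median r of 0.852 over 24 libraries that vary within their group and kind. The value was above 0.9 in 22 genes and below 0.5 in 12. The genes most like the rest were Rps23 and Rpl17 (0.97 each), Rpl26, Rpl32 and Rps20. The least like it were Rps19bp1 (-0.21), which encodes no subunit, and the low-count genes Rpl36al (-0.20), Rps10 (-0.037), Rps4l (0.018) and Rps3a3 (0.082). These correlations share libraries and depth and carry no p-value.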

How the data were processed

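The authors mapped read pairs of 150 bases to GRCm39 with STAR 2.7.9a, per the submitters' processing notes, and Rsubread 2.20.0 (featureCounts) gave the gene counts, per the labels' protocols. Annotation release and strand setting are not given in the sources used here. The deposited counts are whole numbers for 57010 gene identifiers. A deposited normalized signal (counts over 1 factor per library) served only to find the 88 genes. The deposited DESeq2 1.46.0 tables hold a log2 fold change, a test score, a p-value and an adjusted p-value per gene.

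Each comparison used the groups named in the labels. The main test was edgeR 4.0.16 (R 4.3.3), quasi-likelihood, TMM, filterByExpr, robust, with Benjamini-Hochberg adjustment over all genes tested and a threshold of 0.05. It was tested on simulated data. CPM values are scaled by TMM over 26 libraries, and standard errors were derived from each test's F value. Exact two-sided permutation tests of 3 against 3 cannot go below 0.1. The labels do not say that replicates came from separate litters, so p-values measure the spread between these samples. The 22-numbered libraries were treated as a batch, taken from the number in the library names, whose meaning the labels do not give. Same-numbered replicates did not deviate together (correlations from -0.374 to 0.284), so the numbers were not taken as pairs. Alternatives were DESeq2 1.42.0, testing without the filter, fitting the 8 groups together, with or without the kind of library as a term, a replicate block and each library left out. Lengths, overlaps and coding sequences came from the GRCm39 annotation, promoters from RefSeq on GRCm38.p6.

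The genes and lists were chosen with earlier results of these data known. Named genes were fixed roles and paralogs, the 5 highest and lowest per length, up to 10 called genes per direction by fold change or otherwise the 3 smallest p-values, the 3 smallest interaction p-values, and the 5 most and least alike. Genes DESeq2 called, genes the authors' table called, copies and overlapped genes were named after their values were seen.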

Additional observations from a re-analysis of the deposited data

Results flagged for a closer look

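Single libraries that stood far from the rest of their group were looked for in the S205A groups, the only ones with 4 libraries. In 40 such tests 8 gene values stood apart. Chance gives about 1 in 20, but many of the genes were named for a difference between the kinds of library, so that rate does not apply to them. S205A mutant 1 did so at 262 CPM for Rpl14, 289 CPM for Rpl23a, 52.4 CPM for Rpl36, 4.69 CPM for Rpl37rt, 148 CPM for Rps12 and 285 CPM for Rps15. S205A control 4 did so at 330 CPM for Rpl23a and 4.15 CPM for Rpl37rt. These are the 2 libraries of the line that are not 22-numbered.

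By the test of the difference itself, 27 ribosomal protein genes differed between the knockout and Y198F comparisons, where 11.6% of all genes did. Between the Y198F and Y308F comparisons 13 differed, where 5.7% of all genes did. In both, the Y198F effect cannot be told apart from the kind of library. In a joint fit of all 8 groups both counts were 0, without the kind of library as a term and with it. Over all 18715 genes that fit called 108 and 0 without the term, and 3 and 0 with it.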

How the results depend on the processing

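Counts past the threshold depended on the fit. For the knockout, DESeq2 called 7 and no filter on low counts 2 (243 of all 29588 genes). For Y198F the fit of all 8 groups gave a count of 5 (922 of all 18715 genes), against 0 with the kind of library as a term, 31 with no filter (3158 of all 28760 genes), 10 with the replicate block (1760 of all 16050 genes) and 0 against the 22-numbered S205A controls, and 7 to 21 with single libraries left out. Its median was -0.11 with the kind of library as a term and -0.034 to 0.21 with single libraries left out. Between kinds of library the count was 5 with the replicate block (606 of all 15709 genes) and 2 to 30 with single libraries left out, and the median was 0.16 with the block and 0.18 to 0.28 with single libraries left out. The replicate block changed no direction of a median in the 5 comparisons. Left-out libraries moved the median from -0.34 to -0.21 in the knockout, -0.18 to -0.059 in S205A and -0.29 to -0.14 in Y308F. The interaction counts were 15 to 29 for the knockout and Y198F, 0 to 10 for Y198F and S205A and 1 to 16 for Y198F and Y308F with single libraries left out, and the 27 and 13 became 0 with all 8 groups in one fit and 0 with the kind of library as a term. In the same order, the main fits called 2004 of all 17347 genes, 0 of 17479 and 979 of 17190. Counts over all genes with single libraries left out are not given here, so these ranges cannot be set against them. Without ribosomal and mitochondrial RNA the shares were 2.07% in the knockout, 2.06% in Y308F controls and 1.79% in Y308F mutants, and with pseudogene rows added 1.93% in the knockout. The median level per kilobase, 63.7 by union exon, was 182 by canonical transcript, 102 by longest transcript and 434 by coding sequence. The ratio of the 90th to the 10th percentile, 16.7 by union exon, was 23.1, 20.3 and 5.67. Shares ranged, with single libraries left out, from 1.88% to 1.89% in the knockout, 2.00% to 2.27% in wild type, 1.64% to 1.93% in Y198F controls, 1.75% to 2.04% in Y198F mutants, 1.77% to 1.94% in S205A controls, 1.71% to 1.81% in S205A mutants, 1.80% to 1.95% in Y308F controls and 1.57% to 1.68% in Y308F mutants. The cause of these moves was not tested.

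For Y198F, 62 of 87 genes were above 0 against the labelled controls, 5 of 88 with the kind of library as a term and 10 of 87 against the 22-numbered S205A controls. Rpl22 in the knockout ranged from -0.20 to 0.046 with single libraries left out, above 0 only without wild-type library 3. For Y198F, with the kind of library as a term, Rps12l2 was -0.49, Rps27rt -0.67, Rpl37rt -0.16, Rpl36 -0.18, Rplp2 -0.17, Rps28 -0.26, Rpl13 -0.050, Rps12 -0.27 and Rplp1 -0.11. Against the 22-numbered S205A controls Rps12l2 was -0.62, Rpl37rt -0.29, Rpl36 -0.082, Rplp2 -0.10, Rps28 -0.16, Rpl13 -0.045, Rps12 -0.12, Rplp1 -0.051 and Rpl36a 0.041. Apart from left-out libraries, 292 of the named gene values kept direction and side of the threshold, 28 kept direction only and 8 came past the threshold. Low counts limit Rps12l2, Rps27rt, Rpl24, Rps10 and Rpl36al.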
